A study of Mus musculus with 17 samples.

Results

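The 9 genes described here encode proteins that act on mRNAs, on their poly(A) tails or on the proteins bound there, and control translation in male germ cells: *Boll*, *Ybx2*, *Ddx25*, *Cpeb1*, *Cpeb2*, *Papolb*, *Pabpc1*, *Pabpc2* and *Paip2*. They were taken by symbol from the 23282 genes of the deposited table, and all 9 were present. RNA was sequenced from FACS-sorted mouse cells of the C57BL/6 strain (C57BL/6J in the study) at 3 stages, namely spermatogonia (SPG), spermatocytes in pre-leptotene (PreL) and spermatocytes in leptotene or zygotene (LZ). Wildtype (WT) mice were compared with Nat10-SKO mice (SKO, labelled Stra8-cre_Nat10_KO), in which 1 floxed and 1 null allele of the RNA acetyltransferase gene *Nat10* meet a GFPCre knocked in at *Stra8*. This Cre acts in germ cells before meiosis, so somatic cells keep the floxed allele, and no treatment is named for either genotype. SPG and PreL were represented by 3 libraries of each genotype, LZ by 2 WT and 3 SKO libraries. Ages of the mice are not given in the sources used here, and the labels do not tie replicates to animals, although the study calls them biological replicates. The p-values therefore measure the spread between libraries. These are the libraries of the groups compared, or all 17 where genotype effects are compared between stages.

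Transcription and translation are uncoupled in spermatogenesis, and many mRNAs made in meiotic cells are stored and translated only later. DAZ-family and CPEB proteins bind elements in such mRNAs, Y-box proteins package them and DEAD-box helicases remodel them. Poly(A) polymerases lengthen the tail, cytoplasmic poly(A)-binding proteins (PABPs) bind it and promote initiation, and PABP partners tune that step.

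The promoters of *Ybx2*, *Ddx25* and *Papolb* are printed because these 3 genes with an entry in the promoter table had the largest differences between the genotypes in LZ. Each is the first RefSeq entry of its gene (GRCm38.p6), from 250 bases before to 50 bases after the start, 5' to 3' on the strand of the gene. Capitals mark AACNG, the core of sites bound by MYB proteins such as the meiotic regulator MYBL1, on either strand.
Ybx2 (chr11:69935649-69935948, plus strand): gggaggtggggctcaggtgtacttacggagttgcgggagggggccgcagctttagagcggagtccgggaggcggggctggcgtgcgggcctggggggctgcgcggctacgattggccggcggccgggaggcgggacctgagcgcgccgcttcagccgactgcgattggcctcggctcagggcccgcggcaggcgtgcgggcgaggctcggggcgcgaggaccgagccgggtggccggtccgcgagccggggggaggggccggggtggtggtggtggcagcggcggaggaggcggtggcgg
Ddx25 (chr9:35558421-35558720, minus strand): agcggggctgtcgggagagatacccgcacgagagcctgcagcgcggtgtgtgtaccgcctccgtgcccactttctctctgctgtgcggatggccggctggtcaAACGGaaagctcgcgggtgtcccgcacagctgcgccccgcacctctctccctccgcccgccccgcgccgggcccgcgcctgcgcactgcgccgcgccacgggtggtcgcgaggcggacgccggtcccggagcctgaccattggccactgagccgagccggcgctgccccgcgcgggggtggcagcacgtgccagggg
Papolb (chr5:142530027-142530326, minus strand): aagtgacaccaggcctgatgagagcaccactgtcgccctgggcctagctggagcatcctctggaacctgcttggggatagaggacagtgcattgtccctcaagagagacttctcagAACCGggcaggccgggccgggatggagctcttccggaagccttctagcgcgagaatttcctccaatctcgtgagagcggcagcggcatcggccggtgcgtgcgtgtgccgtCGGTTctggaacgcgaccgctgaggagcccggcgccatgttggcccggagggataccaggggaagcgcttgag
AACNG was found in 80.4% of 27025 promoters of this length, taking the first entry of each symbol. It had no match in the *Ybx2* window, 1 match in that of *Ddx25*, 147 bases before the start, and 2 matches in that of *Papolb*, 134 and 23 bases before it. The cAMP response element TGACGTCA, searched on both strands, was in 1.88% of all promoters and in none of the 5 members with an entry, which also include *Boll* and *Cpeb1*. Its first letters TGACG, which the full element contains, were in 21% of all promoters and in 1 of these 5, *Cpeb1*. GC content was 78% for *Ybx2*, 75% for *Ddx25* and 63.3% for *Papolb*, against a median of 52.7% over all promoters.

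Libraries held 5812380 to 13820953 recovered reads, with the fewest in SKO LZ. Rescaled values are the deposited counts, which the authors calibrated to ERCC spike-in RNA, divided by 1 size factor per library. Differences were tested with limma on log2(rescaled value + 10), which understates changes of genes with low values, and a gene was called at a Benjamini-Hochberg adjusted p below 0.05 over all genes and an absolute log2 fold change above 1. Below, a value followed by its standard error (SE) and adjusted p is the log2 fold change from that fit, of SKO against WT unless stages are compared. *Nat10* was lower in every SKO library than in every WT library of its stage (-0.87, SE 0.24, adjusted p = 0.0353 in SPG, not called; -1.30, SE 0.23, adjusted p = 0.00568 in PreL; -1.44, SE 0.29, adjusted p = 0.00374 in LZ). Early meiotic markers summed to rescaled values of 73753 to 222148 in the 17 libraries. Markers of spermatids, which are later than any stage sorted, summed to 2966 to 24527 in WT and 40.1 to 220.3 in SKO libraries, and late spermatocyte markers to 6327 to 194793 and 2652 to 6054. The WT and SKO libraries therefore differed in transcripts of later germ cells at every stage, and in sorted bulk cells fewer cells of a type and less RNA per cell cannot be told apart. By FACS of testis cells, the study could not detect haploid round spermatids in SKO and found a sharp drop in tetraploid spermatocytes. The part of this in the libraries was not tested.

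Of the 9 genes, none was called in SPG, 3 were called lower in SKO PreL (*Ybx2*, *Papolb* and *Pabpc2*) and 6 were called lower in SKO LZ (the same 3 with *Boll*, *Ddx25* and *Pabpc1*). None was called higher on the rescaled values. Among all genes tested, 1.95% were called lower and 3.98% higher in SPG, 5.89% lower and 5.28% higher in PreL, and 25.6% lower and 13.7% higher in LZ. The median log2 fold change of the 9 genes was 0.02, -0.40 and -1.19 at the 3 stages, and that of all genes tested 0.01, 0.03 and -0.11. In SPG, edgeR and DESeq2 also called 0 of the 9, and 3 had an unadjusted p below 0.05 with limma and 2 with either other tool. No share of all genes is given for unadjusted p, here or below. Values of the genotypes did not overlap for 2 of the 9 genes in SPG, 5 in PreL and 8 in LZ, and for 29.5%, 37.4% and 70.3% of all genes tested. On the ERCC-calibrated scale without rescaling, the median of all genes was -0.25, 0.73 and -0.25, and the calls over all genes went from 251 lower and 511 higher to 578 lower and 399 higher in SPG and from 773 lower and 694 higher to 585 lower and 3459 higher in PreL. On that scale *Papolb* and *Pabpc2* were called lower and *Cpeb2* higher in SKO PreL.

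**Figure D1:**
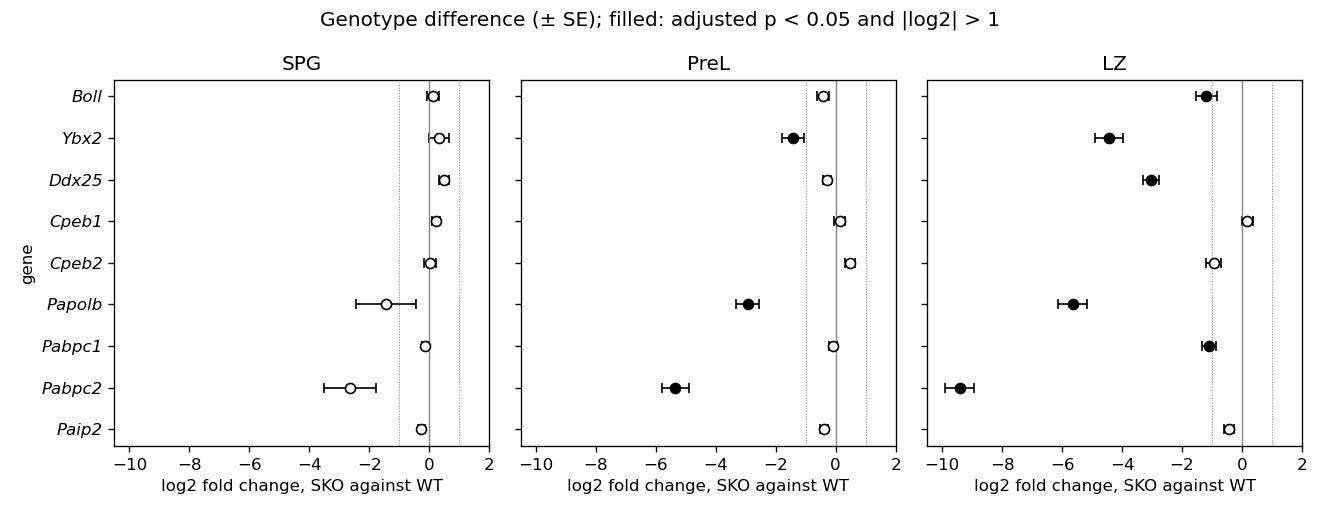
Log2 fold change of SKO against WT (x axis) for the 9 genes (y axis) in SPG, PreL and LZ, with standard errors from limma; filled points were called, and dotted lines mark -1 and 1. No point is filled in SPG, 3 in PreL and 6 in LZ, all to the left of 0; the *Pabpc2* values of PreL and LZ are set by 0 reads in SKO and are no measure of size.

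*Boll*, a DAZ-family gene, encodes an mRNA-binding protein of meiotic and haploid male germ cells (chromosome 1, 55248658 to 55363469, minus strand, GRCm38). Its rescaled values were 621, 664 and 625 in WT SPG and 715, 649 and 704 in SKO SPG. They were 912, 872 and 1305 in WT PreL and 714, 647 and 906 in SKO PreL, and the genotypes overlapped at both stages. In LZ the WT libraries had 816 and 1412 and the SKO libraries 299.5, 588 and 573, so that all SKO values lay below both WT values. The mean was 2.29 times higher in WT LZ (log2 fold change -1.19, SE 0.36, adjusted p = 0.0247 with limma). That call was lost without WT replicate 2 (adjusted p = 0.0756), WT replicate 3 (0.282) or SKO replicate 1 (0.0662), and adjusted p ranged from 0.00151 to 0.282 over the alternatives. Log2 fold changes were 0.11, SE 0.20, adjusted p = 0.781 in SPG and -0.43, SE 0.21, adjusted p = 0.175 in PreL, the latter 0.29 on the scale without rescaling. The related gene *Dazl*, which acts from earlier germ cell stages on, had 0.92, SE 0.23, adjusted p = 0.00977 in LZ, under the fold threshold.

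*Ybx2* encodes MSY2, the Y-box protein that stores mRNAs in germ cells (chromosome 11, 69935796 to 69941605, plus strand). Rescaled values were 319, 167 and 251 in WT SPG and 288, 267 and 356 in SKO SPG, with overlap. In PreL they were 440.0, 855 and 361 in WT and 126, 188 and 266 in SKO, without overlap. In LZ the WT libraries reached 3411 and 11551, while the SKO libraries had 370.3, 205 and 293, values of the order seen in SPG. *Ybx2* was called lower in SKO PreL (-1.42, SE 0.37, adjusted p = 0.0284), with a WT mean 2.85 times higher, and in SKO LZ (-4.43, SE 0.47, adjusted p = 0.000156), with a WT mean 25.8 times higher. The PreL call was lost without WT replicate 1 or 2 (adjusted p = 0.0541 and 0.0974), without SKO replicate 1 or 2 (0.106 and 0.0691) and without rescaling (0.144), and adjusted p ranged from 0.000998 to 0.144. In SPG the log2 fold change was 0.33, SE 0.34, adjusted p = 0.587.

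Among reads of the 3 Y-box genes, the share of *Ybx2* was 2.03% to 4.92% in WT SPG, 3.29% to 4.97% in SKO SPG, 5.39% to 8.1% in WT PreL and 2.25% to 4.41% in SKO PreL. In LZ it was 12.9% and 20.7% in the WT libraries (95% Wilson intervals 12.5% to 13.4% and 20.3% to 21.2%) and 2.94%, 2.09% and 2.71% in the SKO libraries (2.33% to 3.71%, 1.62% to 2.69% and 2.15% to 3.41%). The other members of that family are *Ybx3*, listed as *Csda*, which was itself called lower in SKO LZ (-3.29, SE 0.35, adjusted p = 0.000146), and *Ybx1* (-0.77, SE 0.21, adjusted p = 0.0165), which stayed under the fold threshold. These intervals and all those given for read shares cover counting error only, since PCR copies were not told apart.

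*Ddx25* encodes GRTH, a DEAD-box helicase of mRNA export and translation in spermatocytes and spermatids (chromosome 9, 35536647 to 35558528, minus strand). Rescaled values in SPG were 3170.4, 2178 and 2270.3 in WT and 4033, 3064 and 3513 in SKO, with overlap. PreL values were 2712, 3259.9 and 3040.3 in WT and 2323, 2453 and 2543 in SKO, all SKO values below all WT values. LZ values were 9190.4 and 18517 in WT and 1481, 1819.8 and 1463 in SKO. *Ddx25* was called in LZ alone (-3.04, SE 0.28, adjusted p = 7.61e-05), with a WT mean 8.72 times higher. It had 0.49, SE 0.17, adjusted p = 0.0811 in SPG and -0.30, SE 0.12, adjusted p = 0.128 in PreL, the latter 0.43 without rescaling. Of the other DEAD-box genes listed, the germ cell helicase gene *Ddx4* had -0.13, SE 0.19, adjusted p = 0.607 in LZ. *Ddx6*, whose product sits on repressed mRNAs, was called higher in LZ (1.16, SE 0.16, adjusted p = 0.000673). At the earlier stages *Ddx6* was not called and had the other direction (-0.52, SE 0.20, adjusted p = 0.111 in SPG, and -0.67, SE 0.16, adjusted p = 0.0208 in PreL).

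*Cpeb1* encodes the founding protein that binds the cytoplasmic polyadenylation element (chromosome 7, 81347026 to 81455465, minus strand). Rescaled values in SPG were 2440.4, 2452 and 2739 in WT and 2768, 3006 and 3158 in SKO, without overlap but with a difference that did not pass the test (0.23, SE 0.13, adjusted p = 0.309). PreL values were 2684, 2388 and 3023 in WT and 2845, 2346 and 3786 in SKO (0.13, SE 0.18, adjusted p = 0.657). LZ values were 1349 and 1653 in WT and 1579, 1600.2 and 1914 in SKO (0.18, SE 0.18, adjusted p = 0.434). The genotypes overlapped in PreL and LZ, and *Cpeb1* was the 1 gene of the 9 whose values did so in LZ.

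*Cpeb2* encodes a relative of CPEB1 (chromosome 5, 43233170 to 43289724, plus strand, with exons that overlap the antisense gene *Gm7854*). Rescaled values in SPG were 2009, 2053 and 1626 in WT and 2105, 2301 and 1449 in SKO. In PreL they were 1728, 1543 and 2035 in WT and 2458, 2009 and 2939 in SKO, and at both stages the genotypes overlapped. In LZ they were 2152 and 3598 in WT and 1264, 1430.3 and 1642 in SKO, all SKO values below both WT values. The LZ difference (-0.95, SE 0.24, adjusted p = 0.0114) passed the p threshold and not the fold threshold, which it passed without WT replicate 2 (-1.32) or SKO replicate 3 (-1.04). The values were 0.02, SE 0.19, adjusted p = 0.959 in SPG and 0.47, SE 0.17, adjusted p = 0.0862 in PreL. Without rescaling, *Cpeb2* was called higher in SKO PreL (1.20, adjusted p = 0.000452, range 0.000452 to 0.238). The other CPEB genes had -0.21 (*Cpeb3*, adjusted p = 0.634) and -0.59 (*Cpeb4*, adjusted p = 0.362) in LZ.

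*Papolb* encodes TPAP, the testis poly(A) polymerase that extends tails in the cytoplasm of spermatogenic cells (chromosome 5, 142525838 to 142530076, minus strand, 1 merged exon). Rescaled values in SPG were 206, 247 and 55.5 in WT and 360.5, 0 and 38.4 in SKO replicates 1, 3 and 4, so that SKO replicate 1 was the highest of the 6 libraries and the test was not passed (-1.45, SE 1.01, adjusted p = 0.403). In PreL they were 253, 530.1 and 363 in WT and 22.6, 51.5 and 48.7 in SKO, and the WT mean was 9.33 times higher (-2.94, SE 0.40, adjusted p = 0.00166). In LZ they were 1236 and 3718 in WT and 38.1, 24.8 and 37.6 in SKO, the latter from 7, 7 and 9 reads, and the WT mean was 73.9 times higher (-5.65, SE 0.48, adjusted p = 5.4e-05). The genotypes did not overlap in PreL or LZ. The call in LZ held without WT replicate 3, at a log2 fold change of -4.86.

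Of the reads of *Papolb* and *Papola*, the gene of the canonical nuclear enzyme, *Papolb* had 0.664% to 2.88% in WT SPG and 0% to 4.58% in SKO SPG. Its share was 2.97% to 5.94% in WT PreL and 0.252% to 0.619% in SKO PreL. In LZ it was 16.7% and 31.9% in WT (95% Wilson intervals 15.7% to 17.7% and 30.8% to 33.1%) and 0.456%, 0.283% and 0.439% in SKO (0.221% to 0.938%, 0.137% to 0.583% and 0.231% to 0.832%). Within LZ, *Papola* had 0.28, SE 0.17, adjusted p = 0.184, *Papolg* 0.12, SE 0.20, adjusted p = 0.636 and the cytoplasmic polymerase gene *Tent2* (listed as *Papd4*) 0.43, SE 0.18, adjusted p = 0.0796, none of which was called.

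*Pabpc1* encodes the general cytoplasmic PABP (chromosome 15, 36595661 to 36609668, minus strand). Of its 100-base transcript windows, 2.16% occur in 2 other annotated genes, and reads from them may be missing from its counts, since the study counted uniquely mapped reads. Rescaled values were 10739, 9251 and 9504 in WT SPG and 9240.3, 8249 and 9128 in SKO SPG, just without overlap. The PreL libraries had 11728, 12542 and 9807 in WT and 9564, 10849 and 11306 in SKO, with overlap. The LZ libraries had 34338 and 53574 in WT and 22302, 19253 and 18974 in SKO. In both genotypes every LZ value lay above every PreL value, and the WT LZ mean was 2.18 times that of SKO LZ (-1.09, SE 0.24, adjusted p = 0.00544). Without WT replicate 3 the LZ value was -0.77 (adjusted p = 0.0423), under the fold threshold, and adjusted p ranged from 1.31e-07 to 0.0423. The values were -0.15, SE 0.11, adjusted p = 0.454 in SPG and -0.10, SE 0.14, adjusted p = 0.641 in PreL, the latter 0.63 without rescaling.

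*Pabpc2* encodes a PABP of spermatogenic cells (chromosome 18, 39773497 to 39776082, plus strand, 1 merged exon). It had 141, 75 and 90 reads in WT SPG, 136, 317 and 156 in WT PreL and 2782 and 6433 in WT LZ. In SKO SPG it had 77, 0 and 3 reads in replicates 1, 3 and 4, and in all 3 SKO PreL and all 3 SKO LZ libraries it had 0. The WT means in rescaled values were 176 ± 39.5 in SPG and 429.8 ± 217 in PreL (SD, n = 3 each), and 7909.5 ± 5652 in LZ (SD, n = 2). Against 3 reads in each SKO library, the WT mean was at least 75.5-fold higher in PreL and at least 601-fold higher in LZ, and by the lowest WT library at least 44.4-fold and 239.5-fold (adjusted p = 0.000117 and 2.24e-05 with limma). In SPG the difference was not called (-2.65, SE 0.86, adjusted p = 0.0673). It was called there without SKO replicate 1 (-3.89, adjusted p = 0.0036), and adjusted p ranged from 0.0036 to 0.635.

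*Pabpc2* was also set against *Pabpc1* alone, leaving out other PABP genes such as *Pabpc6*. Of the reads of *Pabpc1* and *Pabpc2*, *Pabpc2* had 1.55% to 2.01% in WT SPG and 2.26% to 5.13% in WT PreL. It had 10.2% and 18.2% in the WT LZ libraries (95% Wilson intervals 9.88% to 10.6% and 17.8% to 18.6%). In SKO SPG replicate 1 had 1.64%, inside the WT range, and replicates 3 and 4 had 0% and 0.0573%. For the 0 reads of *Pabpc2* among 5077, 6108 and 5566 reads in the SKO PreL libraries, the upper 95% Wilson limits were 0.0756%, 0.06285% and 0.069%. For the 0 among 4095, 5438 and 4540 reads in SKO LZ they were 0.0937%, 0.0706% and 0.0845%.

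*Paip2* encodes a PABP-binding repressor of translation (chromosome 18, 35598617 to 35617187, plus strand). Rescaled values were 18408, 22878 and 21061 in WT SPG and 16448, 16519.8 and 18650.5 in SKO SPG. The PreL libraries had 17309, 19487 and 21529 in WT and 14899, 13944 and 15303 in SKO. The LZ libraries had 11511 and 12169 in WT and 8006, 10086 and 8479.7 in SKO. Values did not overlap in PreL or LZ, yet no difference passed the test (-0.27, SE 0.12, adjusted p = 0.16 in SPG; -0.40, SE 0.13, adjusted p = 0.0589 in PreL; -0.42, SE 0.17, adjusted p = 0.0638 in LZ), and in PreL it was 0.33 without rescaling. The gene of the opposing partner PAIP1, an activator, was called lower in SKO LZ (*Paip1*, -1.71, SE 0.17, adjusted p = 9.87e-05), and *Paip2b* was not (0.42, SE 0.22, adjusted p = 0.139).

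The next comparisons follow the stages within a genotype and share libraries with those above and with each other. From SPG to PreL in WT, limma called none of the 9 genes, against 1.04% of all genes called lower and 2.7% higher. DESeq2 called 2 and edgeR none. With limma, 4 had an unadjusted p below 0.05, a looser rule whose share of all genes is not given here. *Ybx2* had 1.08, SE 0.36, adjusted p = 0.0864 and *Pabpc2* 1.15, SE 0.36, adjusted p = 0.0762. Values of the 2 stages did not overlap for 4 of the 9 genes and for 30.4% of all genes tested.

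From PreL to LZ in WT, 5 of the 9 genes rose and none was called lower, against 21.0% of all genes called higher and 5.73% lower. *Pabpc2* rose 18.4-fold by the means (4.07, SE 0.49, adjusted p = 0.00257), *Ybx2* 13.6-fold (3.58, SE 0.50, adjusted p = 0.00257) and *Papolb* 6.49-fold (2.52, SE 0.47, adjusted p = 0.00477). *Ddx25* rose 4.61-fold (2.12, SE 0.28, adjusted p = 0.00257) and *Pabpc1* 3.87-fold (1.92, SE 0.24, adjusted p = 0.00257). These are 2 genes of poly(A)-binding proteins, 1 of a poly(A) polymerase, 1 of a storage protein and 1 of a helicase. At this step markers were called higher for 10 of 10 of late spermatocytes, 7 of 7 of Sertoli cells and 2 of 12 of spermatids. The same held for 2 of 6 of Leydig cells, 1 of 2 of peritubular myoid and endothelial cells and 1 of 11 of early meiosis. Of 11 spermatogonial and 5 macrophage markers none was. In early meiosis and in macrophages 1 marker each was called lower. The part of these cells in the rise was not tested. The *Papolb* call was lost without WT LZ replicate 3 (adjusted p = 0.0581, range 1.37e-05 to 0.0581). *Cpeb1* (-0.84, SE 0.21, adjusted p = 0.0166) and *Paip2* (-0.71, SE 0.19, adjusted p = 0.0193) passed the p threshold and not the fold threshold, and without rescaling they had 0.84 and 0.98. edgeR gave the same 5 calls higher and called *Cpeb1* lower (-1.01, adjusted p = 0.0129, range 0.000277 to 0.0661). *Boll* had 0.08, SE 0.31, adjusted p = 0.854 and *Cpeb2* 0.66, SE 0.26, adjusted p = 0.0797. The median of all genes was 0.26, and 1.86 without rescaling, where calls went from 789 lower and 2888 higher to 15 lower and 10992 higher.

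In SKO none of the 9 genes was called at either step by limma, edgeR or DESeq2. Among all genes, limma called 1.02% lower and 1.56% higher from SPG to PreL, and 6.36% lower and 10.8% higher from PreL to LZ. At an adjusted p below 0.05 without the fold threshold, 5.81% of all genes passed at the first step and 38.4% at the second. An unadjusted p below 0.05, a looser rule, was met with limma by 1 of the 9 genes at the first step. It was met by 6 of 8 tested at the second, *Pabpc2* having no read. The share of all genes meeting that looser rule is not given here. *Pabpc1* had 0.93, SE 0.12, adjusted p = 0.000517 at the second step, just under the fold threshold, and 1.75 without rescaling. *Ddx25* (-0.62, SE 0.12, adjusted p = 0.00385), *Cpeb1* (-0.79, SE 0.17, adjusted p = 0.00785), *Cpeb2* (-0.76, SE 0.16, adjusted p = 0.00646) and *Paip2* (-0.74, SE 0.12, adjusted p = 0.00163) also passed the p threshold alone. Without rescaling these 4 had 0.19, 0.02, 0.05 and 0.08, and the median of all genes was 1.005 at the first step and 0.81 at the second. Calls over all genes then went from 132 lower and 201 higher to 30 lower and 5657 higher and from 794 lower and 1351 higher to 152 lower and 4409 higher.

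The difference in genotype effect between stages was tested as an interaction term over all 17 libraries. Between PreL and LZ it passed for 5 of the 9 genes, all with a more negative effect in LZ, against 23.1% of all genes more negative and 15.1% more positive. *Ybx2* had -3.01, SE 0.61, adjusted p = 0.000768, *Ddx25* -2.74, SE 0.30, adjusted p = 8.86e-07, *Cpeb2* -1.42, SE 0.31, adjusted p = 0.00143 and *Pabpc1* -0.99, SE 0.22, adjusted p = 0.00189. For *Pabpc2* (-4.07, SE 1.09, adjusted p = 0.00646) both SKO groups had 0 reads, so that the value is the WT step with its sign turned. Its call was lost without WT LZ replicate 3 (adjusted p = 0.0602), with a pseudocount of 1 (0.0864) and with edgeR (0.9999), over a range of 3.58e-05 to 0.9999. *Papolb* (-2.71, SE 1.28, adjusted p = 0.104) did not pass, but did without SKO SPG replicate 1 (adjusted p = 0.0226) or 3 (0.034), over a range of 0.00728 to 0.353. *Boll* (-0.76, SE 0.38, adjusted p = 0.122), *Cpeb1* (0.05, SE 0.24, adjusted p = 0.885) and *Paip2* (-0.03, SE 0.19, adjusted p = 0.922) did not pass. The median of all genes was -0.31, and -1.12 without rescaling. Between SPG and PreL it passed for none of the 9 genes with limma, edgeR or DESeq2. With limma, 0.111% of all genes were more negative and 0.251% more positive in PreL. The looser rule of an unadjusted p below 0.05 was met by 3, 4 and 2 of the 9 with these tools. Its share of all genes is not given here. Counting only differences above 1 on the log2 scale, calls over all genes went without rescaling from 2683 lower and 1449 higher to 5892 lower and 702 higher between PreL and LZ and from 13 lower and 32 higher to 147 lower and 4409 higher between SPG and PreL.

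Levels of different genes were compared per length, in RPM per kb of merged exons. In WT SPG *Paip2* was highest (273 ± 16.3), followed by *Pabpc1* (70.3 ± 9.18), *Cpeb1* (28.3 ± 2.19), *Ddx25* (17.2 ± 4.58) and *Cpeb2* (11.3 ± 1.51; SD, n = 3 each), and these did not overlap. *Boll* (8.44 ± 0.207), *Ybx2* (6.14 ± 2.18), *Pabpc2* (3.19 ± 0.878) and *Papolb* (1.86 ± 1.09) came last, each overlapping the next. In WT LZ *Pabpc1* (297 ± 38, SD, n = 2) stood above *Ybx2* (168 ± 106), *Paip2* (152 ± 22.2), *Pabpc2* (129.9 ± 73.7) and *Ddx25* (86.9 ± 26.4). These 4 overlapped in turn, and *Ddx25* did not overlap the gene below it. In SKO LZ *Pabpc1* (106 ± 4.85) and *Paip2* (86.6 ± 17.5; SD, n = 3 each) led and overlapped, then came *Cpeb1* (13.9 ± 1.94). *Ddx25* (7.92 ± 1.6), *Cpeb2* (6.39 ± 1.13), *Ybx2* (5.2 ± 1.09) and *Boll* (4.84 ± 1.88) overlapped in turn below it, and *Papolb* had 0.269 ± 0.0466.

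The 2 WT LZ libraries differed from each other. WT LZ replicate 3 held 3.39 times the rescaled value of replicate 2 for *Ybx2*, 3.04 for *Pabpc2*, 3.01 for *Papolb*, 2.01 for *Ddx25*, 1.73 for *Boll*, 1.67 for *Cpeb2* and 1.56 for *Pabpc1*, but 1.23 for *Cpeb1* and 1.06 for *Paip2*. Late spermatocyte markers summed to 85056 in replicate 2 and 194793 in replicate 3, a ratio of 2.29, and Sertoli cell markers to 24076 and 6269. With either left out, 1 WT LZ library remained, so effect sizes alone are given here. Calls lost in this way are given with each gene above. Without replicate 3 the LZ log2 fold changes were -3.55 for *Ybx2* and -2.53 for *Ddx25*, and without replicate 2 they were -5.31 and -3.54.

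Markers of later germ cells were also called lower in SKO, in SPG as well as in the stages where members were. Late spermatocyte markers were called lower for 4 of 10, 9 of 10 and 10 of 10 in SPG, PreL and LZ, and spermatid markers for 11 of 12, 11 of 12 and 12 of 12. In SKO LZ, *Acrv1* and *Odf1* had 0 reads in every library and *Prm2* and *Adam3* at most 1, whereas *Hspa2* had at least 646 and *Tbpl1* at least 309. SKO SPG replicate 1, the SKO SPG library with the most reads of *Papolb* and *Pabpc2*, had a late spermatocyte sum of 6054, against 2652 and 2855 in the others. Its spermatid sum was the lowest of the group, at 40.1 against 64.5 and 85.6. WT PreL replicate 2, the highest WT PreL library for *Ybx2*, *Papolb* and *Pabpc2*, had a late spermatocyte sum of 32530.4, against 15374 and 12852. Its spermatid sum was 24527, against 20648 and 15540. In the same 3 genotype comparisons, markers were called higher in SKO for 5 of 7, 6 of 7 and 6 of 8 of Leydig cells, 5 of 7, 1 of 7 and 2 of 3 of macrophages, 1 of 5, 3 of 7 and 1 of 7 of Sertoli cells, 2 of 5, 0 of 4 and 0 of 3 of peritubular myoid and endothelial cells, 1 of 11, 2 of 11 and 3 of 11 of spermatogonia and 0 of 11, 1 of 11 and 0 of 11 of early meiosis. The part of these cells in the members' differences was not tested.

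A further 41 genes of translational control were listed by role. Limma, edgeR and DESeq2 called none of 35 tested in SPG (8 with an unadjusted p below 0.05 with limma), limma called 1 lower and 1 higher of 36 in PreL, and 5 lower and 3 higher of 35 in LZ. Among all genes tested, limma called 1.95% lower and 3.98% higher in SPG and 5.89% lower and 5.28% higher in PreL. In LZ it called 25.6% of all genes lower and 13.7% higher. The median log2 fold changes of the listed genes were -0.07, 0.16 and 0.28. The PABP gene *Pabpc6* was called lower in PreL (-2.60, SE 0.54, adjusted p = 0.0116) and in LZ (-6.41, SE 0.46, adjusted p = 2.91e-05), where its rescaled mean was 7985 in WT and 69.6 in SKO. Another PABP gene, *Pabpc4*, was called higher in LZ (1.25, SE 0.28, adjusted p = 0.00641). Besides *Ybx3* and *Paip1*, *Larp1* (-1.31, SE 0.30, adjusted p = 0.00708), whose product binds mRNA and PABP, and *Tarbp2* (-1.31, SE 0.27, adjusted p = 0.00437), a gene of a double-stranded RNA-binding protein, were called lower in LZ. Besides *Ddx6* and *Pabpc4*, *Nanos3* was called higher in LZ (1.43, SE 0.37, adjusted p = 0.0131), and *Lin28a* was called higher in PreL (1.85, SE 0.52, adjusted p = 0.0386), both being on the list of spermatogonial markers too. The *Lin28a* call rests on 3 to 24 reads in WT PreL and 38 to 75 in SKO PreL. It was lost with edgeR, which called 0 of the 36 higher in PreL. None of the 8 genes of deadenylases or their complexes was called between the genotypes, but some passed the p threshold alone with limma. So did 51.8% of all genes tested in LZ, 18.1% in PreL and 10.7% in SPG. Among the 8, those lower in LZ were *Cnot7* (-0.92, adjusted p = 0.00151), *Pan3* (-0.84, 0.00322), *Cnot1* (-0.85, 0.0109) and *Cnot8* (-0.73, 0.035). *Parn* (0.72, 0.0251) and *Cnot6* (0.59, 0.0154) also did so in LZ, in the other direction. *Pan3* had 0.90 (adjusted p = 0.01245) in PreL and *Cnot6* 0.47 (0.0494) in SPG. From PreL to LZ in WT, 6 of 35 rose and none was called lower, against 21.0% of all genes called higher and 5.73% lower. Among the 6 were *Pabpc6* (4.20, adjusted p = 0.00257), *Ybx3* (3.12, adjusted p = 0.00257) and *Ybx1* (1.54, adjusted p = 0.0028).

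**Figure D2:**
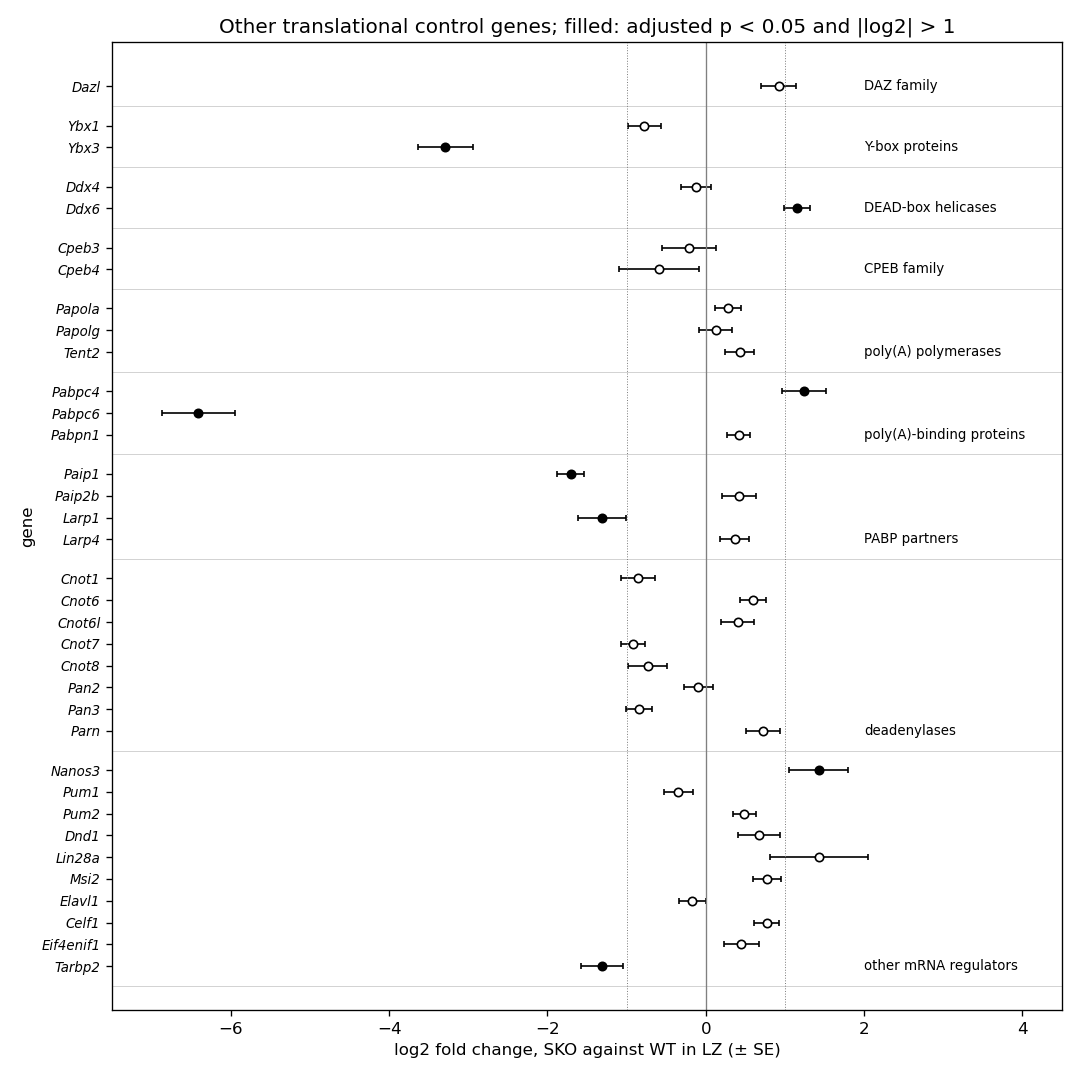
Log2 fold change of SKO against WT in LZ (x axis) with standard error for the 35 other translational control genes tested, grouped by role (filled points were called; dotted lines mark -1 and 1). *Pabpc6* at -6.41 and *Ybx3* at -3.29 lie farthest to the left, and *Nanos3* at 1.43 is the filled point farthest to the right.

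Likeness of profile was measured as Pearson's r of log2(rescaled value + 10) over the 17 libraries, among 8666 genes whose mean reached 100 reads. The genes most like *Pabpc2* were *Cmtm2b* (0.996) and *1700025F22Rik* (0.995), those most like *Papolb* *4930544G11Rik* (0.963) and *Rpgrip1* (0.961), and those most like *Ybx2* *1700012A16Rik* (0.982) and *Rrp1* (0.982). *Ddx25* was most like *Mkrn1* (0.973) and *Bscl2* (0.968), *Pabpc1* like *Rpl10l* (0.968) and *D130020L05Rik* (0.959), *Paip2* like *Polr2b* (0.969) and *Erh* (0.957), and *Cpeb1* like *Pole* (0.946) and *Ttc3* (0.945). The nearest were less alike for *Boll*, *Eif4e2* (0.902) and *D330028D13Rik* (0.891), and for *Cpeb2*, *H2afz* (0.857) and *Pcgf1* (0.856). Among the 9 genes, r was 0.94 for *Papolb* with *Pabpc2*, 0.883 for *Ybx2* with *Ddx25* and -0.839 for *Cpeb1* with *Pabpc1*. These values describe libraries that share stage, genotype and cell content within groups, and no p was computed.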

How the data were processed

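PolyA RNA of FACS-sorted cells was amplified with Smart-seq2 and sequenced as paired ends. The deposited signal values are gene counts that the authors calibrated to ERCC spike-in RNA; their notes name TopHat2 2.1.1, Cufflinks 2.2.1, HTSeq 0.11.2 and DESeq2, and the builds mm9 and mm10, of which the study's methods give mm10 for mapping, with uniquely mapped reads counted. Dividing a library's values by its smallest value gave whole reads for 100.0% of values (tolerance 0.02 reads). Each library was then scaled by 1 median-of-ratios factor, set from 11188 genes over the 17 libraries, which sets aside differences in total RNA that the spike-in carries. Genes averaging 10 or more reads in the libraries compared were tested with limma 3.58.1 (R 4.3.3) on log2(value + 10), each comparison on its own groups and the interactions on all 17 libraries. edgeR 4.0.16 and DESeq2 1.42.0 on recovered reads, TMM scaling, no rescaling, pseudocounts of 1 and 50, no filter, a mean of at least 50 reads, 1 fit of all libraries, the replicate number as a block and each replicate left out were alternatives. The pipeline was tested on simulated data. The members, lists and tests were chosen with earlier results of these data known. The text names *Nat10*, the members, their paralogs and the listed genes called between the genotypes, defining markers, and the 2 genes most like each member. Positions are from GENCODE vM21 (GRCm38), promoters from RefSeq.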

Additional observations from a re-analysis of the deposited data

Results flagged for a closer look

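For 5 of the 9 genes the effect of genotype in LZ was not that in PreL by the interaction term of limma over all 17 libraries, against shares of 23.1% with a lower and 15.1% with a higher step in SKO among all genes. The difference in log2 fold change was -3.01 for *Ybx2*, -2.74 for *Ddx25*, -1.42 for *Cpeb2*, -0.99 for *Pabpc1* and -4.07 for *Pabpc2* (adjusted p = 0.000768, 8.86e-07, 0.00143, 0.00189 and 0.00646). SKO PreL and SKO LZ had 0 reads of *Pabpc2*, so that its value is the WT step with its sign turned, and its call was lost without WT LZ replicate 3, with a pseudocount of 1 and with edgeR. No group had 4 or more libraries, so that no test for an outlying library was made.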

How the results depend on the processing

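Of 980 values under alternatives, for the single-gene results given in the report, 897 kept their direction and their side of the thresholds, 14 lost and 32 gained a call, and 37 turned sign; 20 of 52 results were the same under every alternative. Without rescaling, the count of the 9 genes called was 1 in SPG (7.61% of all genes), 4 for PreL against SPG (44.1%) and 2 for LZ against PreL (36.6%) in SKO, and the interaction passed for 5 between SPG and PreL (45.0%) and 9 between PreL and LZ (54.1%). Among the single values given in the report, that scale turned *Boll* (-0.17), *Cpeb1* (-0.0606) and *Cpeb2* (-0.26) in SPG, *Boll* (0.29), *Ddx25* (0.43), *Pabpc1* (0.63) and *Paip2* (0.33) in PreL, *Cpeb1* (0.84) and *Paip2* (0.98) for LZ against PreL in WT, *Ddx25* (0.19), *Cpeb1* (0.0232), *Cpeb2* (0.0548) and *Paip2* (0.0799) in SKO, and the *Cpeb1* interaction of LZ with PreL (-0.82). TMM scaling turned *Cpeb2* in SPG (-0.00544), *Boll* for LZ against PreL in WT (-0.0777; -0.0572 with size factors over the libraries compared, -0.060 with edgeR, -0.0379 with DESeq2) and the *Paip2* interaction of LZ with PreL (0.12; 0.13 with edgeR). The SPG count was 1 in 1 fit of all 17 libraries, DESeq2 gave 2 for PreL against SPG in WT, and without the fold threshold 1 and 5 passed at the SKO steps (5.81% and 38.4% of all genes).

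Leaving out each replicate in turn gave counts of 0 to 1 in SPG, 2 to 3 in PreL, 4 to 7 in LZ, 0 to 0 and 4 to 6 at the WT steps, 0 to 0 and 0 to 0 at the SKO steps, and 0 to 0 and 4 to 6 for the interactions. Where this left 1 WT LZ library, that library was assumed to vary like the other groups. Values then ranged from -0.11 to 0.22 for *Cpeb2* in SPG, -0.0557 to 0.29 for *Cpeb1* in PreL, -0.31 to 0.48 for *Boll* for LZ against PreL in WT, and -0.11 to 0.23 for *Cpeb1* and -0.12 to 0.0531 for *Paip2* in the interaction of LZ with PreL. With the replicate number as a block, 1 gene was called in SPG (*Pabpc2*) and 1 for PreL against SPG in WT, *Boll* lost its LZ call (-0.88) and *Ybx2* in SPG turned to -0.027. The numbers share no stated origin, and deviations of same-numbered libraries had r of -0.188 to 0.131, so the block was not used; LZ against PreL in WT shares 1 number and could not be blocked. The causes were not tested. Depth limits *Pabpc2* and *Papolb* in SKO, where 1 read was worth up to 5.45 rescaled units.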
